A study of Mus musculus with 15 samples.

Results

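The levels of 9 genes of cholinergic transmission were followed across 15 libraries of laser-captured lumbar motor neurons. They were chosen by symbol: Chat, Slc18a3, Slc5a7, Ache, Prima1, Slc44a1, Chrna4, Chrnb2 and Chrm2. All 9 were rows of the deposited gene table, which holds 36144 symbols, and all 9 passed the filter of at least 1 TPM in at least 3 libraries, which left 15425 genes for testing. TPM values are shares of a library's transcripts, corrected for transcript length. Levels may be set side by side between genes, within limits of annotated transcripts and base composition given below.

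The study modulates p53 signaling in the SMNΔ7 mouse model of spinal muscular atrophy (SMA), a motor neuron disease caused by too little SMN protein. Neurons of spinal segments L1 to L3 carried cholera toxin subunit B, a tracer taken up at axon endings, and were collected at postnatal day 6. There were 5 groups of 3 libraries, all from FVB mice with the human SMN2 and SMNΔ7 transgenes, the controls included. WT mice had genotype Smn+/+;SMN2;SMNΔ7 and received vehicle, and SMA mice had genotype Smn-/-;SMN2;SMNΔ7 and also received vehicle. The other 3 groups were SMA mice injected each day from postnatal day 0. The SMA+MW150 group was given 5 mg/kg of MW150, which inhibits the kinase p38α. The SMA+Pifithrin-α group was given 2.2 mg/kg of Pifithrin-α, which inhibits p53. The SMA+SMN-C3 group was given 3 mg/kg of SMN-C3, which shifts how SMN2 transcripts are spliced. Males and females were used in equal proportions. The libraries of a group are described as biological replicates, and how many animals gave each one is not given in the sources used here.

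Motor neurons signal to muscle with acetylcholine. Choline is taken up into the terminal, joined to an acetyl group, packed into vesicles and released, and the transmitter is split in the synaptic cleft so that its choline can be used again. In the spinal cord, motor neurons also receive acetylcholine, both from recurrent branches and at large synapses on their cell bodies called C-boutons.

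Chat encodes choline acetyltransferase, the enzyme that makes acetylcholine, and Slc18a3 encodes the vesicular transporter that packs it. The genes share a locus on chromosome 14 of GRCm38, minus strand. Chat (ENSMUSG00000021919.8) spans 32408203 to 32465989, and Slc18a3 (ENSMUSG00000100241.1) spans 32462438 to 32464850. Slc18a3 lies within the first intron of the main Chat transcript (32460914 to 32465806) and shares 0 bases with its exons. The antisense gene Gm2990 overlaps the Chat start on the plus strand, and whether the libraries keep strand is not given in the sources used here. The promoters of the pair are shown because the levels of these neighbouring genes are compared below. They are RefSeq sequences on GRCm38.p6, minus strand, from 250 bases before to 50 after each start, at chr14:32465860-32466159 for Chat and chr14:32464801-32465100 for Slc18a3.
Chat: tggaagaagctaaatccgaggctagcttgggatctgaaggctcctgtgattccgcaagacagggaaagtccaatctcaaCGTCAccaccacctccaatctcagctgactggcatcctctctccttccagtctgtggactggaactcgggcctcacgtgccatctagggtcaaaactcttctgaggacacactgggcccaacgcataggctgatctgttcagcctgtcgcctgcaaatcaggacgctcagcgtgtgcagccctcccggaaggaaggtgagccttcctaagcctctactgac
Slc18a3: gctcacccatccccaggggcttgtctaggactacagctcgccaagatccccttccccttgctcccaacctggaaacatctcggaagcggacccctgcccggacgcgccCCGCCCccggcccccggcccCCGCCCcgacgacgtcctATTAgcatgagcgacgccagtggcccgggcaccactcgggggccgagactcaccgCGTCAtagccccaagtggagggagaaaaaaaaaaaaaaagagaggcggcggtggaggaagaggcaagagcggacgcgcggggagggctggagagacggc
All 9 genes matched a promoter in this table. Capitals mark matches to 3 motifs, chosen after the levels were known, as written or as the reverse complement: TGACG (a shortened cyclic AMP response element), TAAT (the core of many homeodomain sites) and GGGCGG (a GC box). No match overlaps another. Chat held 1 match to TGACG and 0 to the others, while Slc18a3 held 1 to TGACG, 1 to TAAT and 2 to GGGCGG. Of 32851 promoters of this length, 20.8% held TGACG, 58.0% TAAT and 35.7% GGGCGG. A match describes letters and is no evidence of binding. The 2 windows differed in base composition, with 55.7% G and C for Chat and 67.0% for Slc18a3.

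Smn1, the deleted mouse gene, was at 8.97 to 23.3 TPM in WT and at 0 to 1.5 TPM in all 12 other libraries. Mitochondrially encoded genes took 21.9% of TPM in WT 1, 20.4% in SMA+Pifithrin-α 3, 12.6% in SMA+Pifithrin-α 2 and 11.3% in SMA+SMN-C3 1, against 3.76% to 7.55% in the other 11. WT 1 and SMA+Pifithrin-α 3 also stood apart in base composition: genes with over 55% G and C lay 1.4 and 1.38 (log2) lower than genes under 45%, each relative to its own median over libraries, against a range of -0.40 to 0.26 in the other 13. All 7 motor neuron markers, none of them among the 9 genes, reached 1 TPM in at least 1 library of each group, with a summed level of 2022 to 4343 TPM per library.

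Ache had the highest mean of the 9 genes in 4 of the 5 groups and Chrnb2 the lowest in all 5. In WT the means were 376 TPM for Ache, 266 TPM for Slc18a3, 197 TPM for Slc5a7, 92.9 TPM for Chat, 61.3 TPM for Chrm2, 36.2 TPM for Chrna4, 12.5 TPM for Slc44a1, 10.2 TPM for Prima1 and 6.54 TPM for Chrnb2. Of neighbours in this order, only Slc5a7 against Chat and Chrna4 against Slc44a1 did not overlap. The Slc5a7 mean includes 147 TPM of a transcript annotated as a retained intron. Its main coding transcript had a WT mean of 49.0 TPM, below the 81.4 TPM of the main Chat transcript. Ache stood above 97.3% of the tested genes in WT and Chrnb2 above 41.6%. In SMA+Pifithrin-α, Slc18a3 (365 TPM) and Ache (364 TPM) had nearly the same mean and overlapped.

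**Figure D1:**
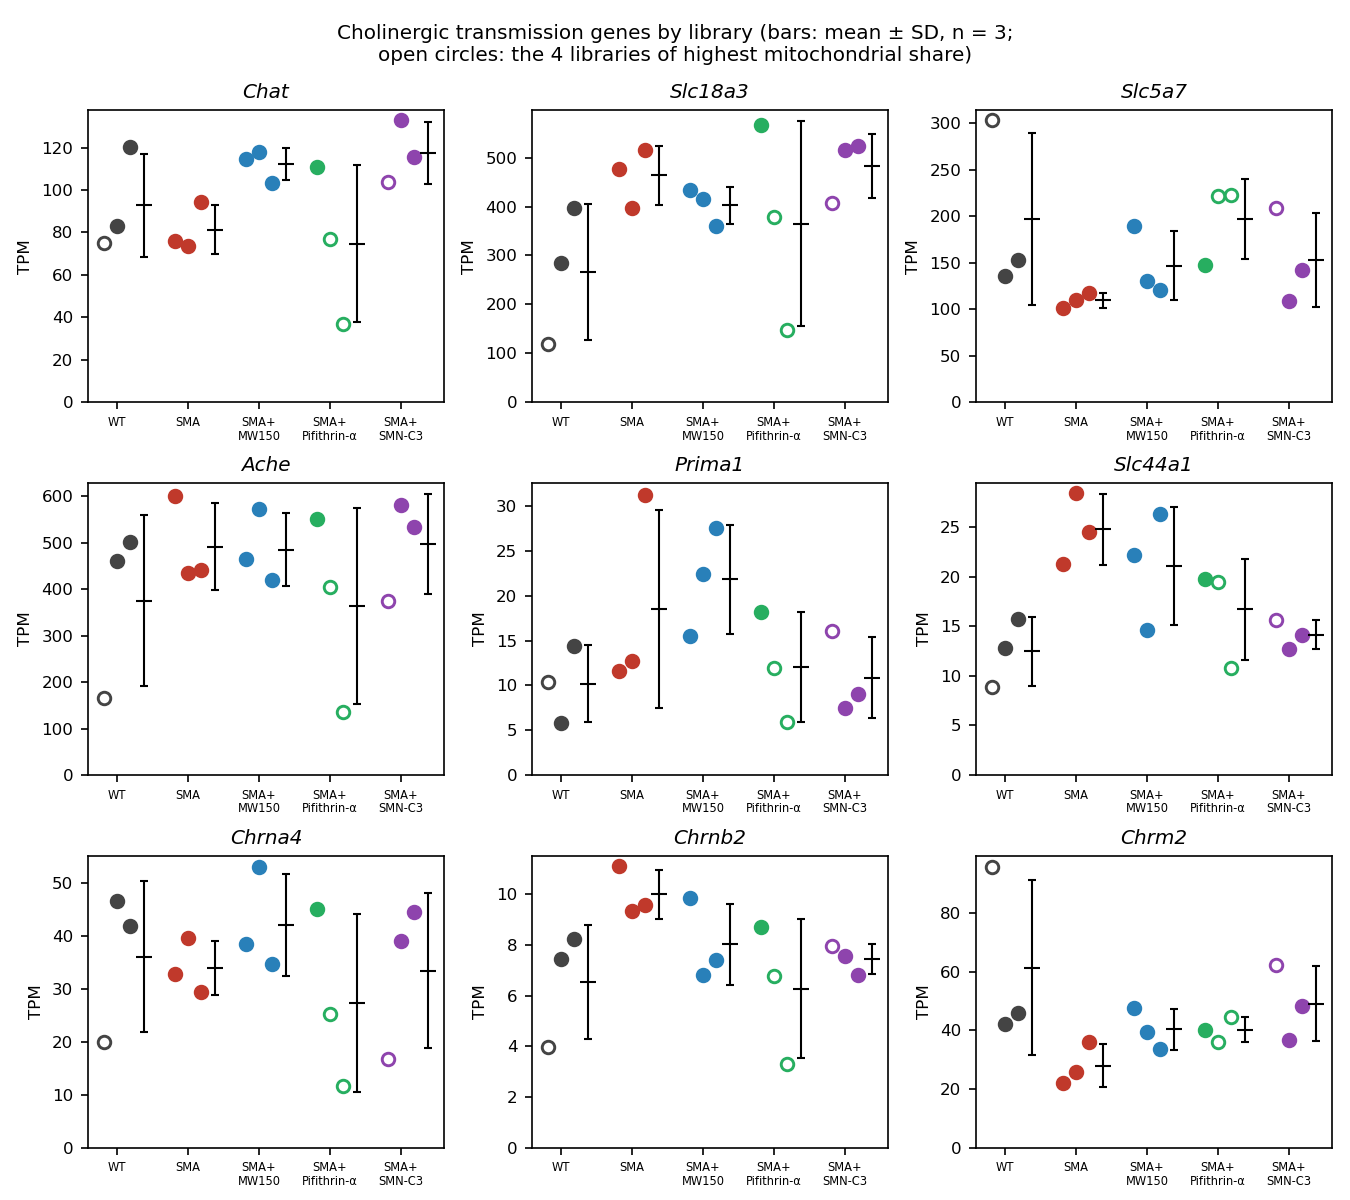
TPM of each gene in every library, with group mean and SD (n = 3). Open circles are the 4 libraries with the highest mitochondrial share, among them the lowest WT and the lowest SMA+Pifithrin-α values of Slc18a3 (119 and 148 TPM) and Ache (165 and 135 TPM).

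No member was called in any comparison with limma and Benjamini-Hochberg adjustment at 0.05 when all libraries were weighted equally. In the moderated F test over the 5 groups, 0 of 9 were called and 0 had an unadjusted p under 0.05 (adjusted p 0.53 to 0.74), where 0.22% of all genes were called and 9.46% had an unadjusted p under 0.05. Between SMA and WT, 0 were called (background 0.363%), and 4 had an unadjusted p under 0.05, as did 13.5% of all genes: Chrm2, Slc44a1, Slc5a7 and Slc18a3. Against SMA, 0 members were called with MW150 (background 0.00648%), Pifithrin-α (0.00648%) or SMN-C3 (0.0648%), and 0, 1 and 2 had an unadjusted p under 0.05, as did 1.9%, 10.7% and 8.53% of all genes. Against WT, 0 were called with MW150 (background 0.143%), Pifithrin-α (0.117%) or SMN-C3 (0.0194%), and 2, 0 and 1 had an unadjusted p under 0.05, as did 10.2%, 5.78% and 7.31% of all genes. The fits with array weights, which weigh each library by its fit to its group, gave calls: 7 members were called in the F test by limma's default method, which stopped before it converged and called 64.0% of all genes, and 3 by its gene-by-gene method, chosen after the first had been seen, which called 20.9%.

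The median log2 change of the 9 members between SMA and WT was 0.53, with 5 positive and 4 negative, against a median of 0.24 over all tested genes. Without WT 1 it was 0.02 (all genes 0.12). It was 0.29 with MW150 against SMA (all genes 0.06), and 0.11 to 0.20 when any 1 of these 6 libraries was left out. It was -0.54 with Pifithrin-α (all genes -0.22), but 0.00 without SMA+Pifithrin-α 3 (all genes 0.00), and 0.01 with SMN-C3 (all genes -0.23). After median-of-ratios scaling the medians of all genes lay between -0.02 and 0.04 in these 4 comparisons, and those of the members were 0.28, 0.21, -0.27 and 0.27. When the log2 mitochondrial share was added to the model the members' medians were -0.21, 0.27, 0.23 and 0.29, so the sign turned for SMA against WT and for Pifithrin-α. The 3 comparisons with SMA and that of SMA with WT share the SMA libraries, so an SMA value enters each of them.

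**Figure D2:**
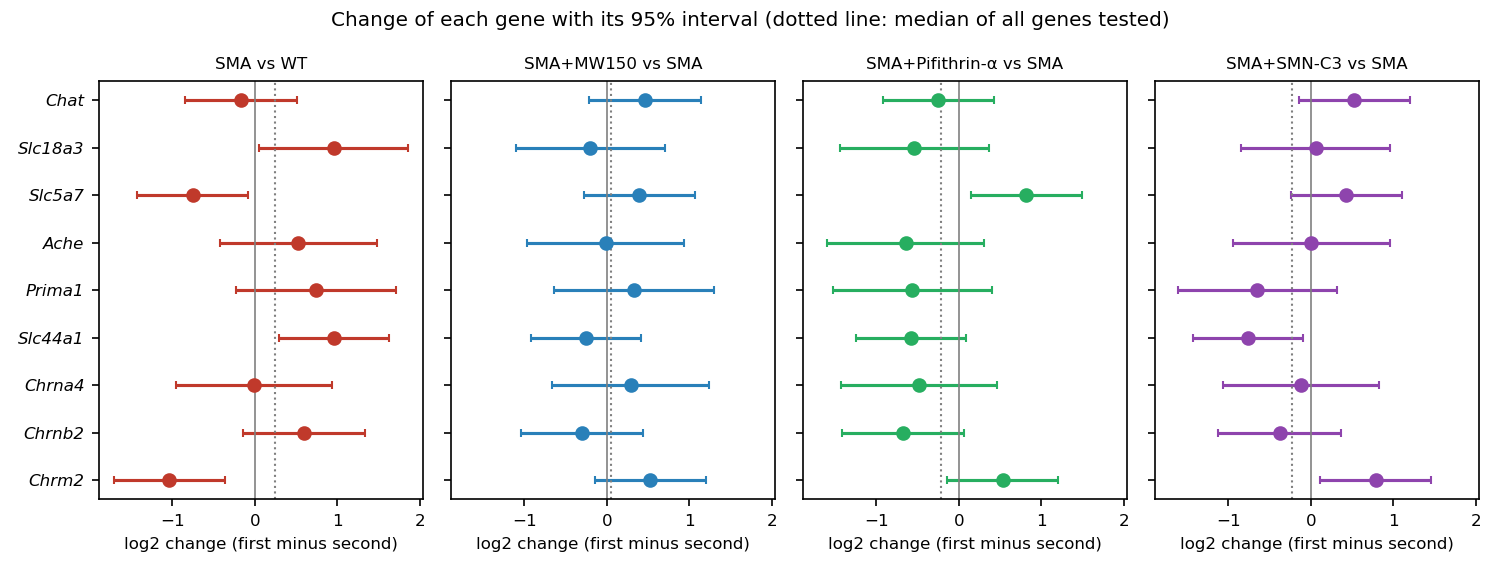
Log2 change of each gene with its 95% interval from limma, for SMA against WT and each treatment against SMA. The interval leaves out 0 for 4 genes in SMA against WT (Slc18a3, Slc5a7, Slc44a1 and Chrm2), before adjustment over all genes.

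Chat was at 75.1, 83.1 and 120.5 TPM in the WT libraries and 75.8, 73.5 and 94.4 TPM in the SMA libraries. These groups overlapped (log2 -0.17, 95% interval -0.85 to 0.51, adjusted p 0.80 with limma). With MW150 Chat was at 114.8, 117.9 and 103.5 TPM, and with SMN-C3 at 103.7, 132.7 and 115.7 TPM. All 6 of these libraries lay above all 3 SMA libraries, by 0.47 (-0.21 to 1.14; adjusted p 1) and 0.53 (-0.15 to 1.20; adjusted p 0.70). With Pifithrin-α the values were 110.6, 76.8 and 36.6 TPM, the lowest of all 15 being SMA+Pifithrin-α 3. The change from SMA was -0.25 (adjusted p 0.73) and 0.19 without that library.

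Slc18a3 was at 119, 284 and 397 TPM in the WT libraries and 478, 398 and 515 TPM in the SMA libraries. The groups did not overlap, but WT 3 (396.6 TPM) lay close to SMA 2 (397.9 TPM). The log2 change was 0.95 (0.05 to 1.85, adjusted p 0.36), 0.46 when WT 1, the library of highest mitochondrial share, was left out, and 0.15 when that share was added to the model. Slc18a3 was at 433, 415 and 360.0 TPM with MW150, at 566, 379 and 148 TPM with Pifithrin-α and at 408, 516 and 525 TPM with SMN-C3. All 3 treated groups overlapped SMA, while SMN-C3 lay above WT (1.01, adjusted p 0.67, and 0.51 without WT 1).

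Set against each other, the neighbours had a ratio of Slc18a3 to Chat of 1.58, 3.42 and 3.29 in WT and 6.30, 5.42 and 5.46 in SMA. The ratio was 3.77, 3.52 and 3.48 with MW150, 5.12, 4.94 and 4.05 with Pifithrin-α and 3.93, 3.88 and 4.53 with SMN-C3. SMA had the highest ratios, and its 3 libraries overlapped no other group. Each of the 4 comparisons with SMA gave p = 0.1 by an exact two-sided permutation test, also after adjustment over the 4, which is the smallest that 3 libraries against 3 allow. The ratio was tested after its values had been seen. A ratio shows unequal change and does not say which gene moved.

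**Figure D3:**
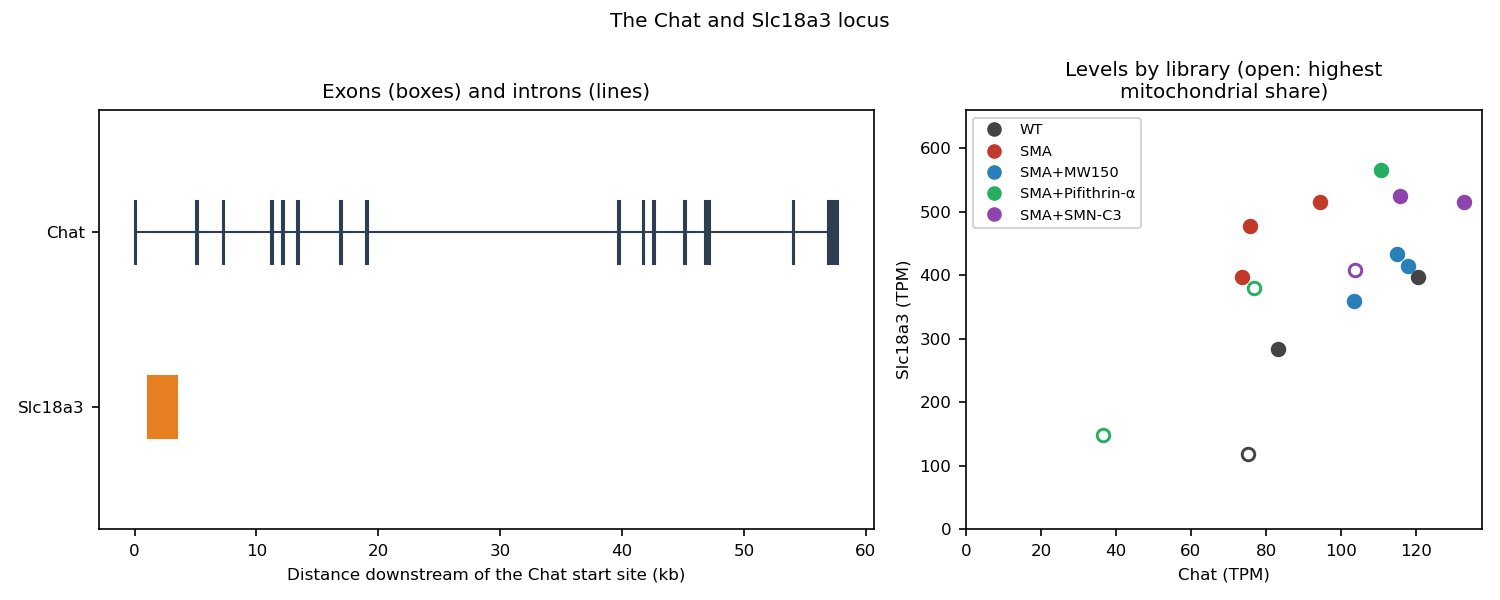
Left, exons of Chat and Slc18a3 by distance in kb from the Chat start, with Slc18a3 inside the first Chat intron. Right, Slc18a3 against Chat in TPM by library: SMA libraries pair 398 to 515 TPM of Slc18a3 with 73.5 to 94.4 TPM of Chat.

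Slc5a7 encodes the high-affinity transporter that returns choline to the terminal (ENSMUSG00000023945.7; chromosome 17, 54273590 to 54299034, minus strand). It was at 304, 136 and 153 TPM in the WT libraries and 101.5, 109.95 and 117.5 TPM in the SMA libraries. Every SMA library lay below every WT library, and WT 1 was the highest of all 15. The log2 change was -0.75 (-1.42 to -0.08, adjusted p 0.35), -0.39 without WT 1, and -0.21 when the share of mitochondrial RNA was added to the model. It was at 189, 130.3 and 121 TPM with MW150, at 147, 221 and 222 TPM with Pifithrin-α and at 208, 109 and 142 TPM with SMN-C3. The MW150 and Pifithrin-α libraries lay above SMA, by 0.39 (adjusted p 1) and 0.82 (0.14 to 1.49, adjusted p 0.46), and the latter was called with array weights (adjusted p 3.25e-04 by the default method and 0.012 gene by gene), which in this comparison called 33.4% and 10.2% of all genes. Without SMA+Pifithrin-α 2 and 3, both of high mitochondrial share, the change was 0.42, and with MW150 it was 0.20 without SMA+MW150 1.

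The Slc5a7 value is a sum of transcripts whose estimated levels changed differently. The coding transcript (ENSMUST00000095712.4) has 9 exons. The other abundant transcript (ENSMUST00000233507.1) is annotated as a retained intron, has 2 exons and shares 3772 of its 4084 bases with the coding one. The shared bases lie in the last 2 exons of the coding transcript, at its 3′ end, and reads from them match both. Only 312 bases belong to the retained-intron transcript alone, against 1408 to the coding one. The split is thus an estimate that depends on read coverage along the gene, which TPM values do not show. The retained-intron transcript had 276, 85.9 and 80.1 TPM in the WT libraries against 37.0, 66.6 and 32.7 TPM in the SMA libraries. The SMA libraries lay below (log2 -1.50, -2.64 to -0.36, adjusted p 0.33, and -0.92 without WT 1). The coding transcript had 26.4, 49.2 and 71.3 TPM in the WT libraries against 62.2, 41.6 and 81.4 TPM in the SMA libraries. These overlapped, and the estimate had the opposite sign from that of the gene (0.39, -0.44 to 1.22, adjusted p 0.67), but it was 0.01 without WT 1. In SMA+Pifithrin-α the retained-intron transcript had 62.0, 168 and 184 TPM and the coding transcript 80.7, 49.6 and 38.1 TPM. The high gene values of replicates 2 and 3 were thus mostly assigned to the former. The coding transcript made up 8.68% of the gene in WT 1, 17.1% in SMA+Pifithrin-α 3, 22.4% in SMA+Pifithrin-α 2 and 22.2% in SMA+SMN-C3 1, the 4 libraries of highest mitochondrial share. It made up 36.2% to 69.3% in the other 11. Its mean share was 25.6 points higher in SMA than in WT (exact two-sided permutation p = 0.2, and 0.32 after adjustment over the 8 tests of transcript shares, which were chosen after the values had been seen), and 14.7 points higher without WT 1.

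**Figure D4:**
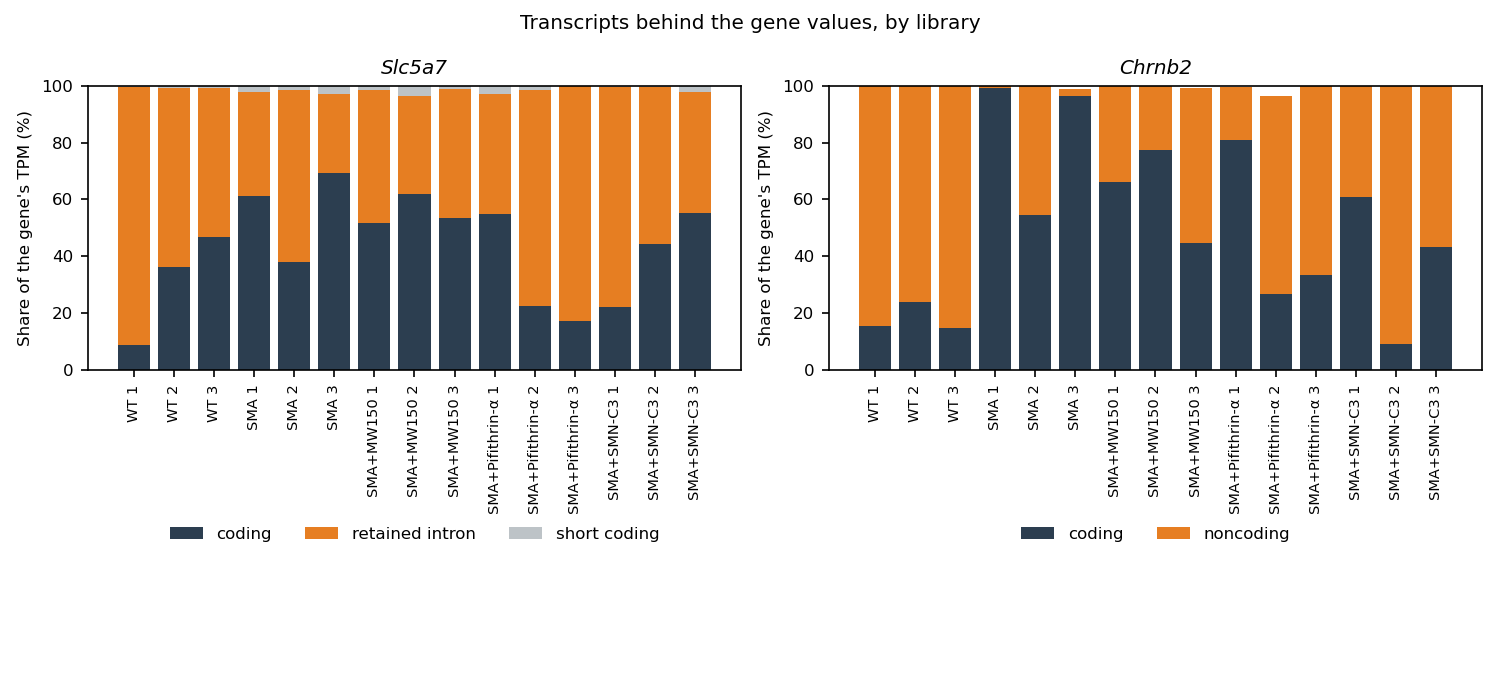
Share of each gene's TPM in its transcripts, by library. The coding transcript of Slc5a7 is at 8.68% in WT 1, and that of Chrnb2 ranges from 8.94% in SMA+SMN-C3 2 to 99.3% in SMA 1.

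Slc44a1 encodes a choline transporter found on many cell types (ENSMUSG00000028412.17; chromosome 4, 53440413 to 53622478, plus strand). It was at 8.86, 12.8 and 15.7 TPM in the WT libraries and 21.3, 28.5 and 24.5 TPM in the SMA libraries, with no overlap. The log2 change was 0.96 (0.29 to 1.63, adjusted p 0.26), and 0.75 without WT 1. It was at 22.2, 14.6 and 26.4 TPM with MW150, 19.8, 19.5 and 10.8 TPM with Pifithrin-α and 15.7, 12.7 and 14.1 TPM with SMN-C3. The Pifithrin-α and SMN-C3 libraries lay below SMA, by -0.58 (adjusted p 0.48, and -0.31 without SMA+Pifithrin-α 3) and -0.76 (-1.43 to -0.09, adjusted p 0.53). Microglia markers, a list of 12, moved beside it: their summed level was 71.0 to 100.0 TPM in WT, 191 to 224 TPM in SMA, 137 to 195 TPM with MW150, 82.6 to 145 TPM with Pifithrin-α and 99.3 to 132 TPM with SMN-C3. Of these 12, 12 were higher in SMA than in WT (median log2 0.97, 1 called) and 0 were higher with Pifithrin-α or SMN-C3 than in SMA (medians -1.27 and -0.89). Of 12 oligodendrocyte-lineage markers 9 were higher in SMA than in WT (median 0.94), and 0 were higher with Pifithrin-α or SMN-C3 than in SMA (-1.29 and -0.76). Their sums spread widely, at 801 to 2309 TPM in WT, 959 to 4724 TPM in SMA, 501 to 1492 TPM with Pifithrin-α and 694 to 2053 TPM with SMN-C3. Of 10 astrocyte markers 10 were higher in SMA than in WT (median 0.64; 758 to 1474 TPM against 1363 to 1869 TPM in sum), and 1 was higher with each of Pifithrin-α and SMN-C3 than in SMA (-0.73 and -0.89). With MW150 Slc44a1 changed by -0.25 from SMA. There 9 of 12 oligodendrocyte-lineage markers were higher (0.17), against 2 of 12 microglia and 1 of 10 astrocyte markers (-0.33 and -0.07). Over all tested genes the medians were 0.24 for SMA against WT. They were 0.06, -0.22 and -0.23 for MW150, Pifithrin-α and SMN-C3 against SMA. Red blood cell markers moved likewise, with 5 of 5 higher in SMA (0.54) and 0 with either treatment (-1.16 and -1.08). So did 3 of 3 tested skeletal muscle markers. Of tested spinal interneuron, motor neuron and vascular markers, 5 of 6, 5 of 7 and 4 of 9 were higher in SMA than in WT. With Pifithrin-α 3, 2 and 2 of these were higher than in SMA, and with SMN-C3 1, 5 and 1. No marker of the microglia, oligodendrocyte-lineage and astrocyte lists was at 0 throughout a group. The part of any list in the Slc44a1 difference was not tested. In tissue captured in bulk, a change in the number of cells of a type and a change of RNA per cell cannot be told apart.

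Ache encodes acetylcholinesterase, which splits acetylcholine (ENSMUSG00000023328.14; chromosome 5, 137287519 to 137294466, plus strand). It was at 165, 461 and 501 TPM in the WT libraries and 600.4, 435 and 441 TPM in the SMA libraries. The groups overlapped (log2 0.53, -0.42 to 1.48, adjusted p 0.56), and the change was 0.02 without WT 1. Ache was at 464, 572 and 419.8 TPM with MW150, 551, 405 and 135 TPM with Pifithrin-α and 376, 582 and 534 TPM with SMN-C3, all overlapping SMA. Its 2 main transcripts hold the same 1842 coding bases, and the commoner one made up 65.9% to 79.2% of the gene in all 15 libraries.

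Prima1 encodes the membrane anchor that holds acetylcholinesterase at neuronal surfaces (ENSMUSG00000041669.15; chromosome 12, 103196908 to 103242150, minus strand). It was at 10.4, 5.85 and 14.4 TPM in WT, 11.6, 12.7 and 31.3 TPM in SMA and 15.5, 22.4 and 27.6 TPM with MW150. It was at 18.2, 11.9 and 5.97 TPM with Pifithrin-α and 16.0, 7.52 and 9.03 TPM with SMN-C3. SMA and WT overlapped (log2 0.74, -0.22 to 1.71, adjusted p 0.44), and the change was 0.31 without SMA 3 and 0.42 without WT 2, while every MW150 library lay above every WT library (1.07, 0.10 to 2.03, adjusted p 0.47). SMA 3, at 31.3 TPM, was the highest of the 15.

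Chrna4 and Chrnb2 encode the α4 and β2 subunits that together form a common nicotinic receptor of neurons. Chrna4 (ENSMUSG00000027577.14; chromosome 2, 181018380 to 181043546, minus strand) was at 19.96, 46.6 and 41.9 TPM in the WT libraries and 32.9, 39.6 and 29.6 TPM in the SMA libraries. These groups overlapped, with a log2 change of -0.01 (-0.95 to 0.94, adjusted p 0.99). It was at 38.6, 53.0 and 34.7 TPM with MW150, 45.1, 25.3 and 11.8 TPM with Pifithrin-α and 16.9, 39.1 and 44.5 TPM with SMN-C3. The lowest values, 11.8, 16.9 and 19.96 TPM, were in SMA+Pifithrin-α 3, SMA+SMN-C3 1 and WT 1, and no comparison of Chrna4 was free of overlap.

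Chrnb2 (ENSMUSG00000027950.7; chromosome 3, 89746195 to 89764632, minus strand, overlapped by Adar on the plus strand) was at 3.97, 7.44 and 8.22 TPM in the WT libraries and 11.1, 9.34 and 9.57 TPM in the SMA libraries. SMA lay above WT (log2 0.59, -0.15 to 1.33, adjusted p 0.43), and the change was 0.32 without WT 1. It was at 9.85, 6.82 and 7.41 TPM with MW150, 8.72, 6.79 and 3.31 TPM with Pifithrin-α and 7.96, 7.58 and 6.81 TPM with SMN-C3. The Pifithrin-α and SMN-C3 libraries lay below SMA, by -0.67 (adjusted p 0.47, and -0.34 without SMA+Pifithrin-α 3) and -0.38 (adjusted p 0.82).

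The split of Chrnb2 between transcripts differed more than its sum. A transcript annotated as noncoding (ENSMUST00000199372.1) shares 6109 of its 6145 bases with the coding one (ENSMUST00000029562.4). The coding transcript had 0.605, 1.77 and 1.20 TPM in the WT libraries against 11.04, 5.09 and 9.23 TPM in the SMA libraries, with no overlap (log2 2.09, 0.91 to 3.27, adjusted p 0.19). Its share of the gene was 15.2%, 23.8% and 14.6% in WT and 99.3%, 54.6% and 96.5% in SMA. The mean share was 65.6 points higher in SMA (exact two-sided permutation p = 0.1, the smallest that 3 against 3 allow, and 0.32 after adjustment over the 8 tests). The noncoding transcript had the opposite sign (-1.69, -2.90 to -0.48, adjusted p 0.29), with overlapping groups. The shares with MW150 (44.7% to 77.4%), Pifithrin-α (26.8% to 80.8%) and SMN-C3 (8.94% to 60.9%) lay between or across those of WT and SMA. The noncoding transcript has 36 bases of its own and the coding one 290, so the split rests on reads from these bases. They lie at the 5′ ends of transcripts 6145 and 6399 bases long, in a gene at 3.31 to 11.1 TPM. How many reads fell on them is unknown.

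Chrm2 encodes the muscarinic M2 receptor, which sits under C-boutons on motor neurons (ENSMUSG00000045613.9; chromosome 6, 36388084 to 36528414, plus strand). It was at 95.6, 42.3 and 46.0 TPM in the WT libraries and 22.0, 25.8 and 36.2 TPM in the SMA libraries. Every SMA library lay below every WT library. The log2 change of -1.04 (-1.71 to -0.36, unadjusted p 0.0048, adjusted p 0.22) was the largest among the 9 genes in this comparison, and it was -0.67 without WT 1. Chrm2 was at 47.8, 39.4 and 33.8 TPM with MW150, 40.1, 36.1 and 44.5 TPM with Pifithrin-α and 62.2, 36.6 and 48.4 TPM with SMN-C3. All 3 libraries of the last group lay above SMA (0.79, 0.11 to 1.46, adjusted p 0.53), while those with MW150 and Pifithrin-α overlapped it (0.53 each, adjusted p 1 and 0.49).

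Counted over the 9 genes, the SMA and WT libraries did not overlap for 5 (Slc18a3, Slc44a1 and Chrnb2 higher, Slc5a7 and Chrm2 lower), where 18.3% of all tested genes did not. Against SMA, 2 members did not overlap with MW150 (background 10.9%), 3 with Pifithrin-α (15.3%) and 4 with SMN-C3 (20.7%). Against WT the counts were 1 with MW150 (19.9%), 0 with Pifithrin-α (6.87%) and 1 with SMN-C3 (12.8%). Most members therefore overlapped in 6 of the 7 comparisons. Of 43 listed transcripts of these genes 23 were tested, and 0 were called in the F test (background 0.0815%) or between SMA and WT (background 0.221%). An unadjusted p under 0.05 was reached by 1 in the F test, the coding transcript of Chrnb2, and by 6 between SMA and WT. Those 6 include the coding and the noncoding transcript of Chrnb2, which share most of their bases. The share of all transcripts at that level is not given here, so these counts of 1 and 6 have no background. SMA and WT did not overlap for 7 of the 23, where 15.8% of all transcripts did not.

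The order of group means changed from gene to gene. WT was the highest group for Slc5a7 and Chrm2 and the lowest for Slc18a3, Prima1 and Slc44a1. Of all neighbours in these orders, only 1 pair did not overlap, MW150 above SMA for Slc5a7. Every other neighbouring pair of groups had overlapping libraries, for each of the 9 genes.

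Across the 15 libraries the members split by direction. Of 36 pairs, 18 had a Pearson correlation of log2(TPM + 1) with an adjusted permutation p under 0.05, 13 of them positive. The share among pairs of other tested genes is not given here, so this count has no background and is not shown to be particular to these genes. Without the 4 libraries of highest mitochondrial share 0 of 36 pairs passed, and 6 had an unadjusted p under 0.05 against 24 over all 15 libraries, in a smaller set of samples. Slc18a3 and Ache gave r = 0.92 and rho = 0.74 (permutation p 6.40e-04 and 0.0026, adjusted p 0.0058 and 0.050), but r was 0.51 without the 2 libraries farthest in Slc18a3, WT 1 and SMA+Pifithrin-α 3. After group means were subtracted it was 0.96, and 0.87 without those 2. Slc5a7 and Chrm2 gave r = 0.80 and rho = 0.72 (permutation p 1.10e-04 and 0.0035, adjusted p 0.0040 and 0.050) and r = 0.69 without the 2 farthest. In the 11 libraries of lower mitochondrial share r was 0.82 for Slc5a7 and Chrm2 (adjusted permutation p 0.060) and 0.51 for Slc18a3 and Ache (0.34). Chat and Slc18a3, the neighbours, gave r = 0.69 and rho = 0.56 (permutation p 0.012 and 0.030, adjusted p 0.026 and 0.12), and r = 0.55 without the 2 farthest and 0.35 in those 11 libraries (adjusted permutation p 0.57). After group means were subtracted, r was 0.90 for Chat and Slc18a3 and 0.86 for Slc5a7 and Chrm2. By rho before that subtraction, none of these 3 pairs had an adjusted p under 0.05.

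WT 1 and SMA+Pifithrin-α 3 held the 2 lowest values of Slc18a3, Ache, Slc44a1 and Chrnb2 and the 2 highest of Slc5a7. The main transcripts of Slc18a3 and Ache have 61.2% and 60.4% G and C, those of Chrnb2 53.1% and 52.5%, those of Slc44a1 50.3% and 41.7%, and those of Slc5a7 37.2% and 40.8%. Prima1 (60.7%) was not at its lowest in WT 1, and Chrm2 (41.6%) was highest in WT 1 but not high in SMA+Pifithrin-α 3. The part of base composition in the group differences was not tested.

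**Figure D5:**
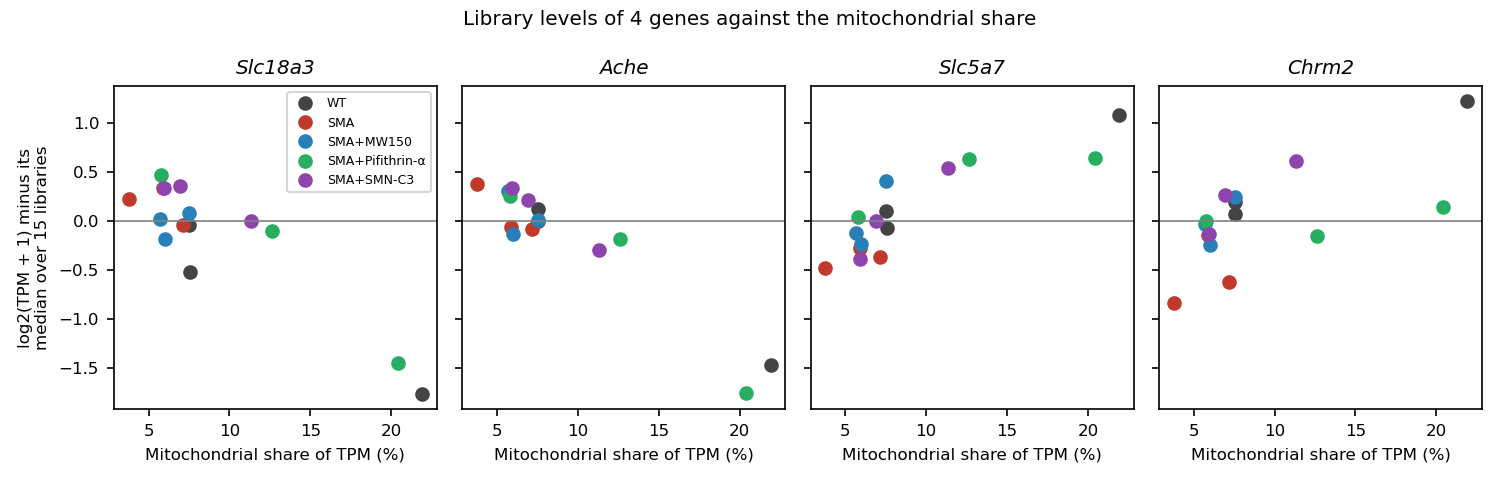
Level of 4 genes in each library, as log2(TPM + 1) minus the gene's median over 15 libraries, against the mitochondrial share. WT 1 (21.9%) and SMA+Pifithrin-α 3 (20.4%) are lowest for Slc18a3 and Ache, and WT 1 is highest for Slc5a7 and Chrm2.

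The genes most like each core member over the 15 libraries, by Pearson's r among tested genes, were Jun (0.94), Nat8l (0.93) and Kcnab2 (0.92) for Chat. They were Stub1, Mapkapk2 and Tmem179 (0.98 each) for Slc18a3, and Vma21, Neto1 (0.96 each) and Pdzd8 (0.95) for Slc5a7. In the 11 libraries of lower mitochondrial share these values were 0.82 to 0.85, 0.87 to 0.96 and 0.88 to 0.95. The genes were picked for the highest r over all 15 libraries, which include these 11, so the values are no independent check. The 3 members had no gene in common among those named.

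Other genes of the pathway were taken from 7 lists with 53 genes, of which 41 were tested. In the F test 0 of the 41 were called (background 0.22%), and 3 had an unadjusted p under 0.05, as did 9.46% of all genes. Between SMA and WT 0 were called (background 0.363%), and 4 had an unadjusted p under 0.05, as did 13.5% of all genes. In that comparison 28 of 41 were positive, with a median log2 of 0.22 against 0.24 over all genes. SMA and WT did not overlap for 5 of the 41 (12.2%, against 18.3% of all genes): Chrna1, Bche and Colq higher, and Kcnn2 and Lhx4 lower, the last outside the rule for naming genes. Against SMA, 0 were called with MW150 (background 0.00648%), Pifithrin-α (0.00648%) or SMN-C3 (0.0648%). Of the 41, 0, 5 and 3 had an unadjusted p under 0.05, as did 1.9%, 10.7% and 8.53% of all genes. Their medians of 0.06, -0.21 and -0.22 stood beside 0.06, -0.22 and -0.23 over all genes.

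Among partners of the cholinesterases, Colq, which encodes the collagen tail that anchors acetylcholinesterase at muscle synapses, had a mean of 0.398 ± 0.345 TPM in WT against 2.91 ± 0.581 TPM in SMA (SD, n = 3). Its log2 change of 1.51 was not called (adjusted p 0.17), though the groups did not overlap. Bche, which encodes butyrylcholinesterase, was at 0.229 ± 0.241 and 2.06 ± 2.29 TPM (1.09, adjusted p 0.32), also without overlap. Both genes were low in all libraries, with at most 4.13 and 4.71 TPM.

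Of 14 other nicotinic subunits 7 were tested. The most abundant were Chrna5 (mean 5.29 TPM over 15 libraries), Chrna7 (3.89), Chrna3 (3.26) and Chrna1 (1.80), and Chrna6 and Chrna9 were listed at 0 in every library. Of the other muscarinic receptors, Chrm3 had a mean of 2.65 TPM and Chrm5 0.599 TPM, while Chrm1 (0.147 TPM) and Chrm4 (0.0263 TPM) did not pass the filter. Chrm2 was thus the muscarinic receptor with the highest level in these neurons.

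The 7 genes for assembly and modulation of nicotinic receptors were all tested. Ly6h and Lynx1, whose products bind these receptors, had means of 326 and 107.4 TPM, and Tmem35a, a chaperone of their assembly, 61.2 TPM. Lypd1 was at 58.9 TPM and had a log2 change of 0.94 between SMA and WT (adjusted p 0.38), the largest of the 7, whose median was 0.47. Its SMA (85.3 ± 39.4 TPM) and WT (41.3 ± 8.54 TPM) libraries overlapped (SD, n = 3). Of 14 genes of choline and acetyl-CoA supply 11 were tested, and Slc25a1 (294 TPM) and Acly (231 TPM), which export and split citrate, led Cept1 (52.1 TPM) and Chkb (45.2 TPM).

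Kcnn2, a calcium-activated potassium channel clustered with Chrm2 at C-boutons, had a mean of 42.0 ± 20.7 TPM in WT against 18.5 ± 6.71 TPM in SMA without overlap (log2 -1.11, adjusted p 0.25). Nrg1, which encodes a neuregulin found at C-boutons, had a mean of 77.2 TPM over the 15 libraries, and its SMA and WT libraries overlapped (log2 -0.44, adjusted p 0.47). Transcription factors of cholinergic identity were present in all groups, with Isl1 at a mean of 78.1 TPM, Lmo4 at 65.8, Isl2 at 35.1 and Mnx1 at 30.7, and log2 changes between SMA and WT of 0.64, -0.23, 0.19 and 0.32 (adjusted p 0.60, 0.66, 0.78 and 0.61).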

How the data were processed

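The authors deposited TPM values per gene and per transcript for 15 libraries, in 1 column each. The submitters' processing notes name kallisto 0.44.0, DESeq2, GRCm38.p6 and mm10; the index, annotation release and trimming are not given in the sources used here. Of 118489 transcripts 98.5% matched GENCODE M21 (GRCm38), the source of names, coordinates and exons. TPM holds no counts, so the depth behind a value is unknown.

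Genes reaching 1 TPM in 3 or more libraries were analysed as log2(TPM + 1), so fold changes of low genes are understated. A single fit of 5 group means used all 15 libraries, in limma 3.58.1 (R 4.3.3; variance trend, two-sided), with Benjamini-Hochberg adjustment over all genes of a comparison; transcripts likewise. Intervals are unadjusted 95% intervals. Correlations used 100000 permutations (scipy 1.17.1). Alternatives were other scalings, filters, pseudocounts, library weights, a replicate block and left-out libraries.

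The fit was tested on simulated data with residuals shuffled within each gene. That scheme was adopted after an earlier one, which shuffled whole libraries, had given many false calls. The adopted scheme removes effects shared by a whole library, so it checks the code and not the false-call rate under such effects; repeated draws of the earlier scheme, kept as a record, gave few false calls in most draws and very many in some.

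The members and lists were chosen with earlier results of these data known. The text names all 9 members, any called pathway gene, up to 4 of highest mean TPM per list and the 3 genes most correlated with Chat, Slc18a3 and Slc5a7. Some genes that this rule names are not reported here.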

Additional observations from a re-analysis of the deposited data

How the results depend on the processing

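The 9 genes gave 36 log2 changes in the comparison of SMA with WT and of each treatment with SMA, and 24 of these kept their direction under all 17 alternatives run for each. Array weights changed the counts of calls. With limma's default method, which stopped before it converged, 7 members were called over the 5 groups (Chat, Chrm2, Chrna4, Prima1, Slc18a3, Slc44a1 and Slc5a7). It called 2 for SMA+Pifithrin-α against SMA (Slc5a7 and Chrnb2) and 2 for SMA+Pifithrin-α against WT (Slc5a7 and Chrna4). It also called 8 of 23 tested member transcripts and 27 of 41 tested pathway genes. Over all genes it called 64.0%, 33.4% and 24.4% in these 3 comparisons. The share of all transcripts called with array weights is not given here. The gene-by-gene method, chosen after those calls on the members had been seen, called 3 (Chat, Prima1 and Slc5a7), 1 (Slc5a7), 0, 1 and 6, and 20.9%, 10.2% and 3.95% of all genes. In each of the other alternatives 0 were called, every left-out replicate included. Correlated pairs numbered 18 of 36, 7 with median-of-ratios scaling and 0 without the 4 libraries of highest mitochondrial share, a set chosen after seeing the data; for Chat and Slc18a3 r was 0.42 (adjusted permutation p 0.22) with that scaling and 0.585 (0.069) without mitochondrial genes. The cause was not tested, and the share among pairs of other genes is not given here.

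Signs changed as follows. Without 1 replicate, the change ranged from -0.306 to 0.031 for Chat and -0.379 to 0.213 for Chrna4 (SMA against WT), -0.14 to 0.136 for Ache (MW150), -0.596 to 0.189 for Chat, -0.956 to 0.008 for Slc18a3 and -0.925 to 0.001 for Chrna4 (Pifithrin-α), and -0.049 to 0.173 for Slc18a3, -0.119 to 0.196 for Ache and -0.378 to 0.298 for Chrna4 (SMN-C3). With array weights Ache was 0.044 (MW150) and Chrna4 0.115 (SMN-C3), and gene by gene 0.041 and 0.079. With median-of-ratios scaling Chat was 0.013 (Pifithrin-α) and Chrna4 0.136 (SMN-C3). The next 3 settings were chosen after seeing the data. Without the 2 libraries of highest mitochondrial share, Chat was 0.189, Slc18a3 0.008 and Chrna4 0.001 (Pifithrin-α). Without the 4 highest, which leaves 1 SMA+Pifithrin-α library that is assumed to vary like the other groups, Chat was 0.45, Slc18a3 0.296, Ache 0.18, Prima1 0.115 and Chrna4 0.407 (Pifithrin-α), and Chrna4 0.298 (SMN-C3). With the share as a term, Ache was -0.38 (SMA against WT) and 0.196 (MW150), Chat 0.242, Slc18a3 0.336, Ache 0.346 and Chrna4 0.385 (Pifithrin-α), and Chrna4 0.294 (SMN-C3).

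With the replicate number as a block 0 members were called, with a lowest adjusted p of 0.606 over the 5 groups. The labels do not say whether the numbers pair the libraries. Deviations of 30 same-numbered pairs correlated from -0.342 to 0.285, with 4 over 0.1. Their median was 0.0079, against 0.0078 for pairs of other numbers, and 7 of 15 libraries were closest to their own number. These values do not settle whether libraries were paired.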
